A study of Mus musculus with 17 samples.

Results

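The 9 genes described here encode components of the Nodal and activin branch of TGF-beta signaling, out of 54532 genes listed for R1/E mouse embryonic stem cells (mESCs). They are the ligand genes *Nodal*, *Inhbb*, *Gdf3* and *Inhba*, the co-receptor gene *Tdgf1*, the receptor gene *Acvr2b*, the secreted inhibitor genes *Lefty1* and *Lefty2*, and the intracellular inhibitor gene *Smad7*. They were chosen by symbol with their levels across genotype and day in these same libraries known, so every level and fold change of the 9 genes is given as a description and without a p-value. RNA was sequenced from wild-type cells and from cells of 1 *Usb1* knockout line, KO-1, before treatment (day 0, self-renewal culture) and after 1 or 3 days of retinoic acid (RA), which induces differentiation. Wild-type cells at day 0 had 2 libraries, and wild-type cells at days 1 and 3 and *Usb1* knockout cells at days 0, 1 and 3 had 3 each. No library came from untreated cells at day 1 or 3, so RA and time in culture cannot be told apart. A change with RA, or a response, below means the difference from day 0. The knockout was made with CRISPR/Cas9 and shifts the reading frame of *Usb1*, the gene of the enzyme that trims the 3′-end of U6 snRNA. Since all knockout libraries came from 1 line, the knockout and other properties of that line cannot be told apart.

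Nodal and activins are secreted dimers that bring together type I and type II serine/threonine kinase receptors at the cell surface, and the activated receptors phosphorylate SMAD2 and SMAD3, which enter the nucleus with SMAD4 and partners such as FOXH1. Nodal requires a co-receptor of the Cripto family, of which Tdgf1 is the founding member, whereas activins do not. The pathway induces its own inhibitors, the Lefty proteins and Smad7, and *Nodal* itself is among its target genes. In the early embryo it patterns the epiblast and directs mesendoderm formation.

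Levels are given as TPM (transcript abundance scaled by gene length and by the total of each library), so that levels can be compared between genes. Reads on genes, recovered from TPM and exon length, ranged from 15404379 to 17300186 per library (median 16089311). Wild-type replicate 1 at day 0 stood apart, since only 239 of its genes had 1 read, where every other library had 1224 to 2467 such genes. Next lowest were knockout replicate 1 at day 3 (1224) and wild-type replicate 2 at day 0 (1352), and the rest had 2150 to 2467. The targeted gene *Usb1* was at 15.2 to 17.9 TPM in the knockout and at 37.1 and 40.0 TPM in the wild-type libraries of day 0, and it was lower in every knockout library than in every wild-type library at each day. The labelled cell type was checked on its markers, and 8 pluripotency genes summed to 9188 to 10019 TPM over the day 0 libraries, while 7 fibroblast markers summed to 4.65 to 9.01 TPM over the libraries of days 0 and 1, of which *Lum*, *Dcn* and *Postn* were at 0 there. Below, a gene is said to be called where its change was 2-fold or more and limma's p, adjusted over the 21871 genes with a TPM of 1 or more in 2 or more libraries, was under 0.05. Of the 9 genes, 8 passed the filter and *Inhba* did not.

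The 250 bases before the annotated start are shown for 3 of the genes that were highest at day 0 or day 1 and lower at day 3, *Tdgf1*, *Inhbb* and *Nodal*, so that they can be read beside those levels. The sequences are from RefSeq (GRCm38.p6), in which 5 of the 9 genes were matched, and run 5′ to 3′ in the direction of the gene. The *Tdgf1* sequence is chr9:110946159-110946408 on the minus strand, that of *Inhbb* chr1:119422249-119422498 on the minus strand, and that of *Nodal* chr10:61417722-61417971 on the plus strand. Capitals mark matches, on either strand, to the letters TGTNNATT (FOXH1) or CAGAC (SMAD).
Tdgf1: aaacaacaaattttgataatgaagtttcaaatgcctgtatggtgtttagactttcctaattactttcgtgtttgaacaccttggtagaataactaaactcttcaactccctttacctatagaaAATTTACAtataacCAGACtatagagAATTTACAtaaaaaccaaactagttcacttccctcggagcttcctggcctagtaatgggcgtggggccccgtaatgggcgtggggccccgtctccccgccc
Inhbb: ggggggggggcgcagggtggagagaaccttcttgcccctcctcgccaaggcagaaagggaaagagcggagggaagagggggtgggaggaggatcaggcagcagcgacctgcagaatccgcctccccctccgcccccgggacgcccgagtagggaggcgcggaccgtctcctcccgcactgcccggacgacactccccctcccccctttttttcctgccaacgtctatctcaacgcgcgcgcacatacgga
Nodal: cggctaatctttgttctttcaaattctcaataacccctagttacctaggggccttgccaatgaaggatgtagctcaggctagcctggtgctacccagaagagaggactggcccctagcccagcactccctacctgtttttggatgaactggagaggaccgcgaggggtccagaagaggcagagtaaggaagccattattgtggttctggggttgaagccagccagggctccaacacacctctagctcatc
The *Tdgf1* sequence held 2 matches to the FOXH1 letters, at bases 127 to 120 and 101 to 94 before the start, with 1 match to the SMAD letters between them at bases 113 to 109, and the matches did not overlap. The *Inhbb* and *Nodal* sequences held neither motif, and of the other 2 matched genes, *Acvr2b* held 1 match to the SMAD letters, at bases 233 to 229 before the start. Among 32817 sequences of the same length before annotated starts, 10.9% held the FOXH1 letters and 42.2% the SMAD letters. The letters AGGTCA, a half-site of RA receptors, were in none of the 5 matched sequences and in 14.0% of all. A match is a string of letters and not a measured binding site, and these letters outside the 250 bases were not searched.

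*Inhbb*, which encodes the chain of activin B, was the ligand gene with the highest level at day 0 and the lowest share of it left at day 3 among the 8 genes that passed the filter. Wild-type libraries held 562 and 544 TPM at day 0, 119, 118 and 112 TPM at day 1, and 2.08, 2.53 and 2.89 TPM at day 3. *Usb1* knockout libraries held 690, 637 and 655 TPM at day 0, 400.2, 397 and 368 TPM at day 1, and 4.87, 6.21 and 4.0 TPM at day 3. The 6 groups thus came in the order knockout day 0, wild-type day 0, knockout day 1, wild-type day 1, knockout day 3 and wild-type day 3, and no neighbours in that order overlapped. After 1 day of RA, *Inhbb* was at 21.01% of its day 0 mean in wild-type cells and at 58.8% in knockout cells. In bulk RNA, fewer cells that express a gene and less of its RNA per cell cannot be told apart, here or for any gene below.

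The genotypes differed most in *Inhbb* at day 1. The mean was 388 ± 18.0 TPM (SD, n = 3) in knockout cells and 116 ± 3.74 TPM (SD, n = 3) in wild-type cells, a 3.34-fold difference (log2 fold change 1.73, SE 0.11). At day 0 the log2 fold change of knockout over wild-type cells was 0.25 (SE 0.12), and at day 3 it was 0.77 (SE 0.11). The day 3 means were 5.03 and 2.50 TPM, a 2.01-fold difference, and the 1 added to TPM before the log lowers the fold change at such levels. The reads behind these means numbered 8028 to 8343 per knockout library and 2162 to 2369 per wild-type library at day 1, but 80 to 116 and 41 to 53 at day 3. The difference at day 1 was thus far larger than the spread between libraries, and the depth behind the values of day 3 was the lowest. At day 1, the summed level of 6 RA response genes was 575 to 617 TPM in knockout libraries and 1133 to 1190 TPM in wild-type libraries, with 3 of the 6 called lower in the knockout. The summed pluripotency genes were at 10630 to 11525 TPM in knockout and 8477 to 8945 TPM in wild-type libraries at the same day, with 1 of 8 called higher, and 6 primitive endoderm markers at 19.8 to 23.0 TPM and 77.6 to 79.6 TPM, with 3 of 6 called lower. Their part in the *Inhbb* difference was not tested.

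**Figure D1:**
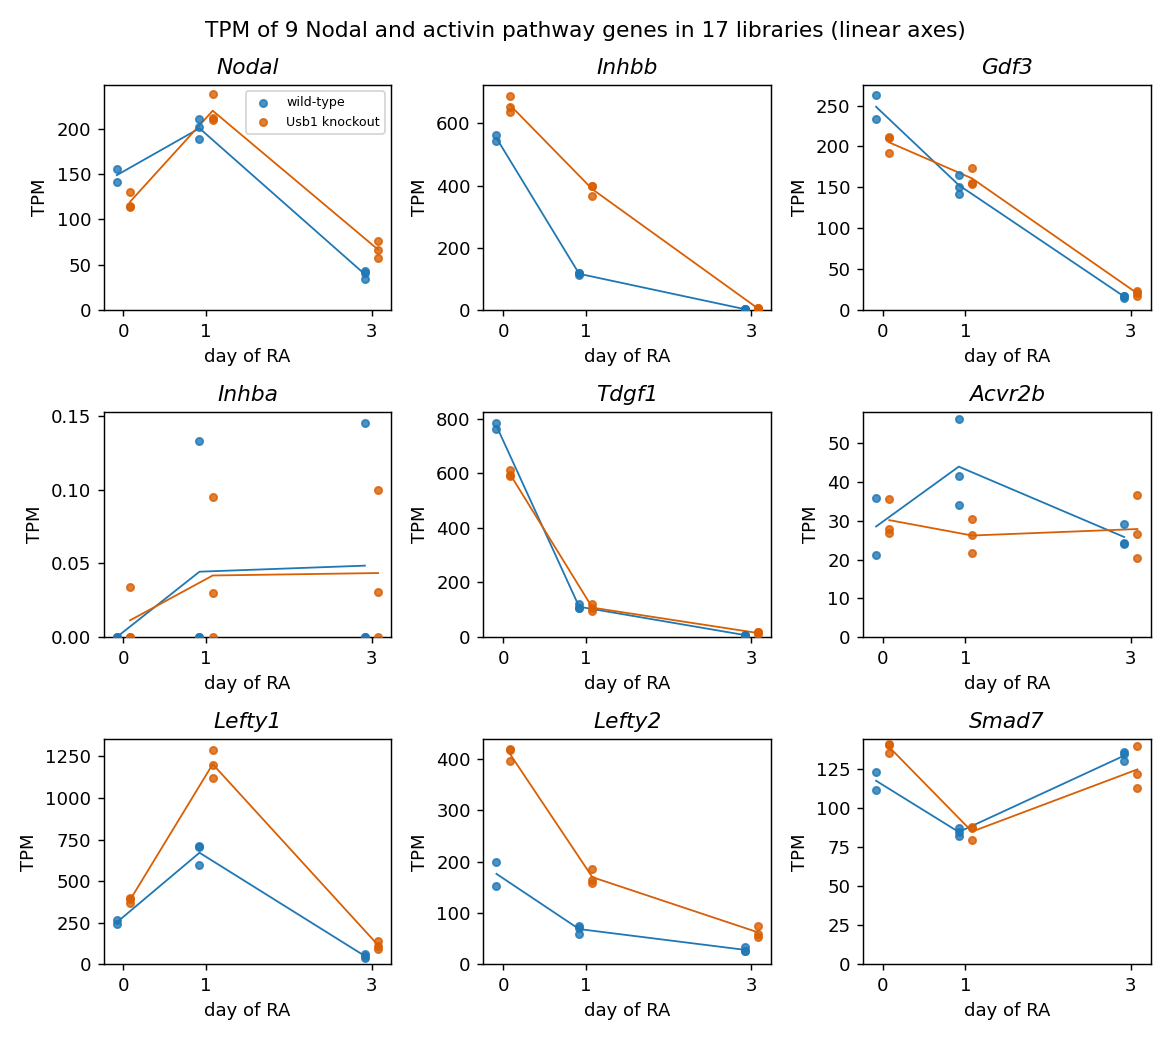
TPM (y axis, linear and starting at 0) of the 9 genes against the day of RA treatment (x axis) in 8 wild-type libraries (blue) and 9 *Usb1* knockout libraries (orange), 1 point per library with lines through the group means. *Inhbb* at day 1 lies between 368 and 400.2 TPM in knockout and between 112 and 119 TPM in wild-type libraries, and *Lefty1* and *Nodal* peak at day 1 in both genotypes.

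*Nodal*, the ligand that names the branch, was at its highest at day 1 and its lowest at day 3 in both genotypes. Wild-type libraries held 156 and 142 TPM at day 0, 202, 211 and 189 TPM at day 1, and 43.4, 40.3 and 34.2 TPM at day 3. Knockout libraries held 130.3, 115 and 113 TPM at day 0, 239, 210.0 and 212 TPM at day 1, and 66.3, 76.1 and 57.6 TPM at day 3. At day 1 the genotypes overlapped, whereas at day 0 every knockout library was below and at day 3 every knockout library above the wild-type libraries. The log2 fold change of knockout over wild-type cells was -0.32 (SE 0.12) at day 0, 0.13 (SE 0.10) at day 1 and 0.74 (SE 0.10) at day 3. By day 3 *Nodal* stood at 26.4% of its day 0 mean in wild-type cells and at 55.8% in knockout cells.

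*Gdf3* encodes a ligand of the same family that also acts through Cripto. Its level was lower at day 1 than at day 0 and far lower at day 3 in both genotypes. Wild-type libraries held 263 and 234 TPM at day 0, 151, 165 and 142 TPM at day 1, and 17.6, 16.7 and 14.6 TPM at day 3. Knockout libraries held 212, 210.3 and 193 TPM at day 0, 173, 155 and 155 TPM at day 1, and 20.5, 22.5 and 17.3 TPM at day 3. The genotypes overlapped at days 1 and 3. Day 3 levels were 6.56% of day 0 in wild-type and 9.81% in knockout cells. *Inhba*, which encodes the chain of activin A, was barely detected. It had 0 reads in 10 of 17 libraries and at most 4 reads in any library, that is at most 0.145 TPM, and 0 reads in a library allow up to 3 under counting error alone. At days 0 and 1 every library thus held over 100 TPM of *Inhbb* and under 1 TPM of *Inhba*.

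The balance of *Inhbb* and *Nodal* within a library differed between days and genotypes. The ratio of *Inhbb* to *Nodal* TPM was 3.72 ± 0.166 (SD, n = 2) at day 0, 0.579 ± 0.0163 (SD, n = 3) at day 1 and 0.0651 ± 0.0184 (SD, n = 3) at day 3 in wild-type cells. In knockout cells it was 5.54 ± 0.238, 1.77 ± 0.111 and 0.0748 ± 0.00618 (SD, n = 3 each). At day 1, *Nodal* was therefore the higher of the pair in every wild-type library, and *Inhbb* in every knockout library. At day 3 the genotypes overlapped, with ratios of 0.0479 to 0.0845 in wild-type and 0.0695 to 0.0816 in knockout libraries.

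*Tdgf1*, the gene of the Cripto co-receptor, had the highest level of the 9 genes at day 0 in wild-type cells. Wild-type libraries held 763 and 785 TPM at day 0, 120.3, 107 and 106 TPM at day 1, and 8.24, 9.27 and 4.95 TPM at day 3. Knockout libraries held 611, 595 and 592 TPM at day 0, 122, 96.9 and 105 TPM at day 1, and 10.3, 17.1 and 17.4 TPM at day 3. The knockout was lower than wild-type at day 0, overlapped with it at day 1 and was higher at day 3, where the means were 15.0 ± 4.01 and 7.49 ± 2.25 TPM (SD, n = 3 each). By day 3, 0.968% of the day 0 level was left in wild-type and 2.50% in knockout cells. *Tdgf1* transcripts shared 5.99% of their 75-base windows with the processed pseudogene *Tdgf1-ps1*, so reads could be counted for either. Only exact matches were searched, and how many reads are concerned was not measured. The pseudogene was listed at 371 and 448 TPM in wild-type libraries at day 0 and at 3.79 to 9.50 TPM at day 3.

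*Acvr2b* encodes a type II receptor for Nodal and activins. Its level showed no common course. Wild-type libraries held 21.1 and 36.0 TPM at day 0, 56.3, 34.1 and 41.7 TPM at day 1, and 24.0, 24.2 and 29.2 TPM at day 3. Knockout libraries held 35.7, 26.9 and 28.0 TPM at day 0, 26.5, 30.6 and 21.6 TPM at day 1, and 20.5, 36.6 and 26.6 TPM at day 3. Only at day 1 did the genotypes not overlap, with all wild-type libraries above all knockout libraries (log2 fold change -0.71, SE 0.24). The spread between libraries of a group was wide for this gene, and its difference at day 0 of 0.11 (SE 0.26) became -0.26 without wild-type replicate 1 and 0.49 without wild-type replicate 2.

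*Lefty1* and *Lefty2* encode secreted inhibitors that bind Nodal and its co-receptor. The genes lie on the plus strand of chromosome 1 (GRCm38), *Lefty2* at 180893108 to 180899103 and *Lefty1* at 180935022 to 180938400, with 35918 bases between them. Both were higher in the knockout at each day, without overlap between libraries. From day 0 to day 1, however, *Lefty1* rose and *Lefty2* fell in both genotypes. *Lefty1* held 241 and 263 TPM at day 0, 705, 709 and 599 TPM at day 1, and 48.3, 62.4 and 37.2 TPM at day 3 in wild-type libraries. In knockout libraries it held 398, 367 and 393 TPM at day 0, 1291, 1123 and 1197 TPM at day 1, and 108, 142 and 92.8 TPM at day 3. At day 1 *Lefty1* was the highest of the 9 genes in both genotypes.

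*Lefty2* held 153 and 199 TPM at day 0, 74.7, 71.3 and 59.4 TPM at day 1, and 25.9, 33.0 and 25.3 TPM at day 3 in wild-type libraries. In knockout libraries it held 418, 417 and 396 TPM at day 0, 186, 158 and 164 TPM at day 1, and 53.9, 73.8 and 59.1 TPM at day 3. The excess in the knockout was of like size at each day, with log2 fold changes of 1.23 (SE 0.15) at day 0, 1.3 (SE 0.13) at day 1 and 1.12 (SE 0.13) at day 3, or 2.33-fold, 2.48-fold and 2.22-fold. For *Lefty1* the log2 fold changes were 0.61 (SE 0.18), 0.84 (SE 0.16) and 1.21 (SE 0.16). At day 0 the difference in *Lefty2* was 1.04 without wild-type replicate 1 and 1.41 without wild-type replicate 2. In *Lefty2* level, knockout cells at day 1 overlapped with wild-type cells at day 0, and knockout cells at day 3 with wild-type cells at day 1.

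The ratio of *Lefty1* to *Lefty2* TPM within a library was highest at day 1. It was 1.45 ± 0.174 (SD, n = 2), 9.82 ± 0.342 (SD, n = 3) and 1.74 ± 0.236 (SD, n = 3) in wild-type cells at days 0, 1 and 3. In knockout cells it was 0.943 ± 0.0575, 7.11 ± 0.185 and 1.84 ± 0.232 (SD, n = 3 each). The wild-type ratio was the higher at days 0 and 1 in every library, and the genotypes overlapped at day 3. *Lefty1* and *Lefty2* transcripts share 11.7% and 7.77% of their 75-base windows, respectively, so some reads could be counted for either gene. Relative to the ligand, *Lefty1* stood at 1.70 ± 0.222 times *Nodal* (SD, n = 2) in wild-type and 3.24 ± 0.208 times (SD, n = 3) in knockout cells at day 0, and at 3.34 ± 0.159 and 5.47 ± 0.157 times (SD, n = 3 each) at day 1.

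**Figure D2:**
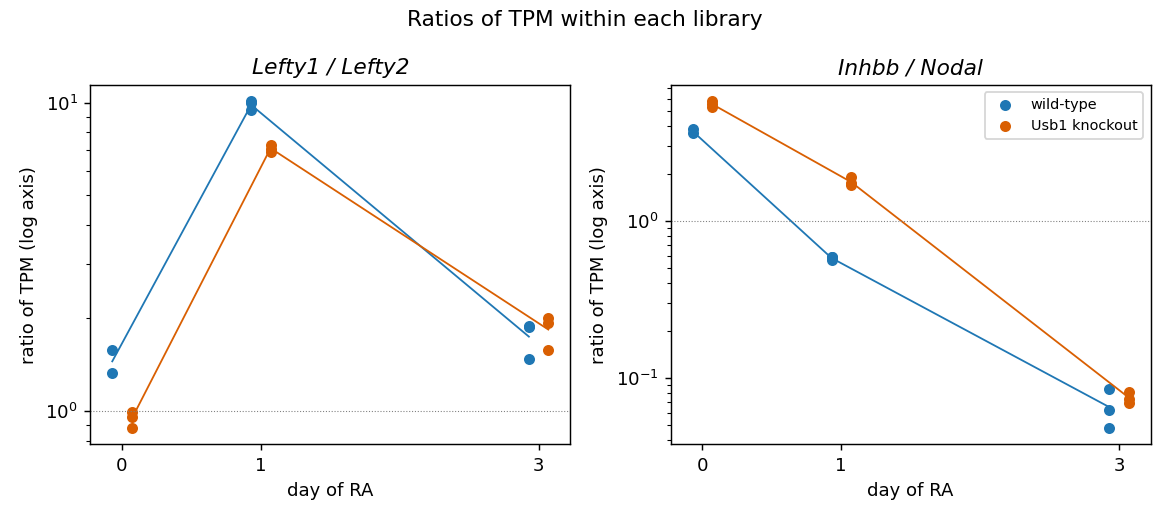
Ratio of *Lefty1* to *Lefty2* TPM (left) and of *Inhbb* to *Nodal* TPM (right) within each library on a log axis, against the day of RA treatment, with 1 point per library and lines through the group means (wild-type blue, *Usb1* knockout orange, dotted line at a ratio of 1). The *Lefty1* to *Lefty2* ratio peaks at day 1, at a mean of 9.82 in wild-type and 7.11 in knockout cells, and the *Inhbb* to *Nodal* ratio at day 1 lies on opposite sides of 1 in the 2 genotypes.

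*Smad7*, whose product blocks the activated type I receptor, was not called in any comparison. Wild-type libraries held 112 and 123 TPM at day 0, 85.1, 82.2 and 87.1 TPM at day 1, and 136, 135 and 130.4 TPM at day 3. Knockout libraries held 141, 141 and 136 TPM at day 0, 87.7, 87.7 and 79.9 TPM at day 1, and 122, 140.0 and 113 TPM at day 3. Day 1 was the lowest day in both genotypes, at 72.1% of the day 0 mean in wild-type and 61.1% in knockout cells. The genotypes overlapped at days 1 and 3.

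Set together, the changes with RA were mostly downward by day 3. In wild-type cells, 4 of 8 genes were called at day 1 against day 0, *Lefty1* higher (log2 fold change 1.41, SE 0.18) and *Inhbb* (-2.24, SE 0.12), *Lefty2* (-1.34, SE 0.15) and *Tdgf1* (-2.79, SE 0.21) lower, where 13.9% of all genes tested were called. At day 3, 6 of 8 were called, where 25.8% of all genes were called and 9.68% were called lower. All 6 were lower, *Inhbb* (-7.31, SE 0.12), *Tdgf1* (-6.55, SE 0.21), *Gdf3* (-3.85, SE 0.11), *Lefty2* (-2.60, SE 0.15), *Lefty1* (-2.36, SE 0.18) and *Nodal* (-1.90, SE 0.12). The median over the 8 genes was -0.58 at day 1 and -2.48 at day 3, and over all genes 0.17 and 0.10. The genes were chosen on these contrasts, and nothing is read from the shares.

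In knockout cells, 3 of 8 genes were called at day 1 (6.95% of all genes), *Lefty1* higher (1.64, SE 0.16) and *Lefty2* (-1.27, SE 0.13) and *Tdgf1* (-2.47, SE 0.19) lower. *Inhbb*, with -0.76 (SE 0.11), did not reach a 2-fold change there. At day 3, 5 of 8 were called (21.9% of all genes, 8.04% lower), all of them lower, *Inhbb* (-6.79, SE 0.11), *Tdgf1* (-5.27, SE 0.19), *Gdf3* (-3.29, SE 0.10), *Lefty2* (-2.71, SE 0.13) and *Lefty1* (-1.77, SE 0.16). *Nodal* had a log2 fold change of -0.84 (SE 0.10). The medians over the 8 genes were -0.53 and -2.24, against 0.02 and 0.03 over all genes.

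**Figure D3:**
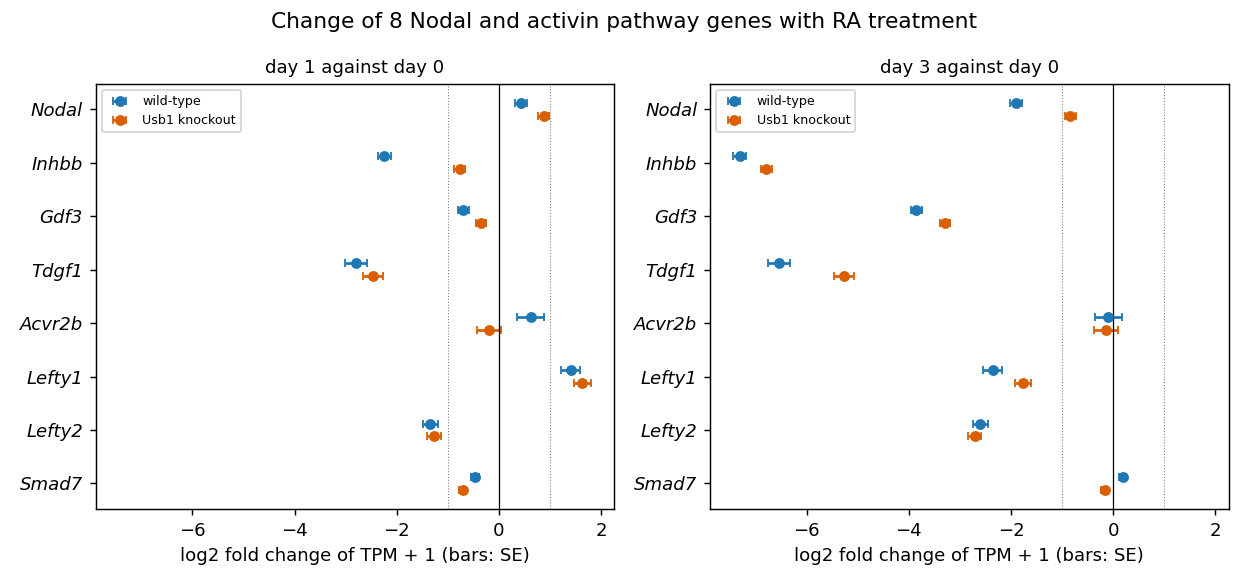
Log2 fold change of TPM + 1 (x axis) at day 1 (left) and day 3 (right) of RA against day 0 for the 8 genes that passed the filter, with wild-type cells in blue, *Usb1* knockout cells in orange, bars of 1 SE and dotted lines at a 2-fold change. *Lefty1* lies at 1.41 and 1.64 at day 1, and *Inhbb* at -7.31 and -6.79 at day 3.

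The changes in the 2 genotypes were compared gene by gene as the response of the knockout minus that of wild-type cells. At day 1, 1 of 8 genes was called (0.860% of all genes), *Inhbb*, with a difference of 1.48 on the log2 scale (SE 0.16). At day 3, 2 of 8 were called (2.42% of all genes), *Tdgf1* with 1.28 (SE 0.29) and *Nodal* with 1.06 (SE 0.16), so that both had lost less of their day 0 level in the knockout. Without wild-type replicate 1 at day 0 these were 1.3 and 0.99, and 0 of 8 genes were called. For *Lefty2* the responses differed by 0.07 (SE 0.20) at day 1 and by -0.11 (SE 0.20) at day 3, and the sign of each turned when 1 of the wild-type libraries at day 0 was left out. The median difference over the 8 genes was 0.28 at day 1 and 0.54 at day 3, against -0.12 and 0.01 over all genes.

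The genotypes themselves were compared at each day. At day 0, 1 of 8 genes was called (3.05% of all genes, 1.60% higher), *Lefty2*, which was not called with the libraries of that comparison alone. The libraries of the 2 genotypes did not overlap for 7 of 8 genes, 4 higher in the knockout (*Inhbb*, *Lefty1*, *Lefty2* and *Smad7*) and 3 lower (*Nodal*, *Gdf3* and *Tdgf1*), as was so for 36.6% of all genes. At day 1, 2 of 8 were called (2.22% of all genes, 0.462% higher), *Inhbb* and *Lefty2*, both higher. There, 4 of 8 did not overlap, *Inhbb*, *Lefty1* and *Lefty2* higher and *Acvr2b* lower (39.8% of all genes). At day 3, 2 of 8 were called (1.29% of all genes, 0.521% higher), *Lefty1* and *Lefty2*, the latter falling just short of 2-fold without knockout replicate 2 (0.992), and 5 of 8 did not overlap, all 5 higher in the knockout (22.0% of all genes, 11.0% higher), *Nodal*, *Inhbb*, *Tdgf1*, *Lefty1* and *Lefty2*. The median over the 8 genes was 0.18, 0.10 and 0.76 at days 0, 1 and 3, and over all genes 0.00, -0.13 and 0.00. With libraries scaled to an equal median, which removes that shift at day 1, *Inhbb* was at 1.97 and *Lefty1* at 1.09 there, and 3 of 8 genes were called. At day 3 the summed pluripotency genes were at 1446 to 1798 TPM in knockout and 1051 to 1275 TPM in wild-type libraries, with 2 of 8 called higher, and the summed primitive endoderm markers at 185 to 209 TPM in knockout and 395 to 434 TPM in wild-type libraries, with 3 of 6 called lower. The RA response genes summed to 549 to 596 TPM in knockout and 821 to 959 TPM in wild-type libraries at day 3. Of these 6 genes, 1 was called lower, and 3 had a log2 fold change above 0. The 7 fibroblast markers summed to 71.7 to 80.3 TPM in knockout and 44.5 to 54.2 TPM in wild-type libraries at day 3, with 1 of 5 tested called higher. Trophoblast markers summed to 158 to 173 TPM in knockout and 96.7 to 117 TPM in wild-type libraries at day 3, with 2 of 5 tested called higher, and to 35.7 to 38.4 TPM and 24.7 to 26.3 TPM at day 0, with 0 of 5 called (limma), while at day 1 they overlapped. Neural progenitor markers summed to 111 to 130.4 TPM in knockout and 88.1 to 95.7 TPM in wild-type libraries at day 3, to 21.1 to 24.3 TPM and 14.3 to 19.0 TPM at day 0, and to 32.7 to 33.8 TPM and 35.5 to 37.7 TPM at day 1, and none of the 3 tested was called by limma at any day. Their part in the differences of the 9 genes was not tested.

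**Figure D4:**
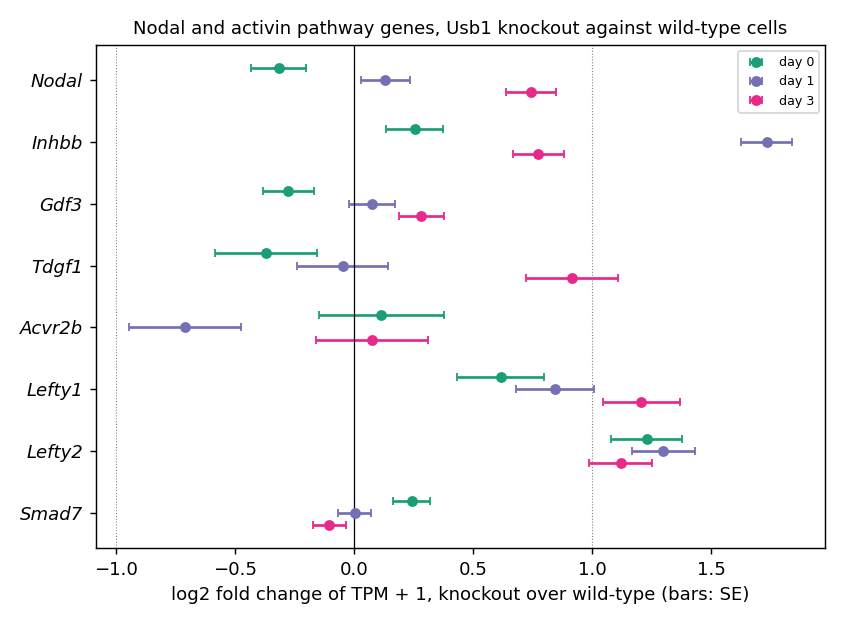
Log2 fold change of TPM + 1 of *Usb1* knockout over wild-type cells (x axis) at day 0, 1 and 3 (colours) for the 8 genes that passed the filter, with bars of 1 SE and dotted lines at a 2-fold change. *Lefty2* lies past 2-fold at each day (1.23, 1.3 and 1.12), *Lefty1* moves from 0.61 to 1.21, and *Inhbb* stands apart at day 1 (1.73).

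Across the 17 libraries the 8 genes fell into like and unlike courses, described here by Pearson's r of log2(TPM + 1) with n = 17, where libraries of a group share day and genotype. *Inhbb* and *Gdf3* had r = 0.981, *Nodal* and *Lefty1* r = 0.968, and *Inhbb* and *Tdgf1* r = 0.947. *Lefty1* and *Lefty2* had r = 0.633, lower than *Lefty1* with *Nodal* or *Lefty2* with *Inhbb* (r = 0.886). *Smad7* ran against *Nodal* (r = -0.731). Of all other genes tested, those most like *Nodal* were *Ppm1b* (r = 0.983), *Gm26562* (0.976), *Eif2b3* (0.976), *Cenpm* (0.975) and *1110002J07Rik* (0.974), and among those most like *Inhbb* were *Dlgap3* (r = 0.994), *Bcat1* (0.994), *Gm18363* (0.993) and *Arc* (0.993), each over 17 libraries. *Dlgap3*, as an example, averaged 109, 37.2 and 3.41 TPM at days 0, 1 and 3 in wild-type cells, where the knockout averaged 117, 63.9 and 5.28 TPM.

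The rest of the pathway was followed in a list of 49 other genes, of which 44 passed the filter, and these were tested. This list too was chosen with earlier results of these data known, which the adjusted p-values do not account for. In wild-type cells at day 1, 11 of 44 were called (13.9% of all genes), all higher, and at day 3, 20 of 44 (25.8% of all genes), with 15 higher and 5 lower. In knockout cells the counts were 7 of 44 at day 1 (6.95% of all genes), all higher, and 20 of 44 at day 3 (21.9% of all genes), with 18 higher and 2 lower. The medians over the 44 genes were 0.42 and 0.65 in wild-type and 0.31 and 0.69 in knockout cells. Of the calls over all genes at day 3, 62.4% in wild-type and 63.2% in knockout cells were higher, and 51.8% and 44.8% with libraries scaled to an equal median.

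Among ligand genes, *Tgfb2*, a gene of the TGF-beta ligands proper, rose from 1.39 TPM at day 0 to 89.2 TPM at day 3 in wild-type cells (limma, log2 fold change 5.32, SE 0.22, adjusted p = 6.12e-11) and from 0.665 to 105 TPM in knockout cells (6.0, SE 0.20, limma adjusted p = 4.45e-12). *Inha*, whose product joins activin chains to form inhibins, and *Gdf11* rose at day 3 in both genotypes. Both convertase genes *Furin* and *Pcsk5* rose and *Pcsk6* fell. *Furin*, which cleaves the precursors of these ligands, went from 9.84 to 35.1 TPM in wild-type cells (limma, log2 fold change 1.73, SE 0.13, adjusted p = 4.81e-08), and *Pcsk6* from 91.4 to 23.2 TPM (limma, -1.93, SE 0.13, adjusted p = 1.28e-08). The co-receptor genes *Cfc1*, another Cripto family gene, and *Tgfbr3* rose in both genotypes at day 3, the former from 0.217 to 4.85 TPM in wild-type cells.

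All 4 tested genes of secreted or membrane inhibitors rose in wild-type cells at day 3. *Fst*, the gene of follistatin, which binds activins, went from 2.03 to 18.5 TPM (limma, log2 fold change 2.68, SE 0.18, adjusted p = 1.20e-08), and *Bambi*, the gene of a pseudoreceptor, from 7.32 to 77.5 TPM (limma, 3.30, SE 0.19, adjusted p = 2.28e-09). *Fstl3* and *Dand5* rose as well, the latter at low level (1.5 to 5.98 TPM), and its call was lost without wild-type replicate 1 at day 0 (limma adjusted p = 0.156). In knockout cells, *Fst*, *Bambi* and *Fstl3* rose and *Dand5* was not called. Of the signal transducers, *Smad2* and *Smad4* were not called in any comparison, with wild-type means of 54.8 and 97.7 TPM at day 0 and 74.3 and 115 TPM at day 3. *Smad3* rose at day 3 from 13.2 to 31.7 TPM in wild-type (limma, 1.20, SE 0.15, adjusted p = 6.63e-06, and 0.994 with an equal median, short of 2-fold) and from 12.8 to 41.0 TPM in knockout cells. *Foxh1*, the gene of the SMAD partner, followed a course like that of *Nodal* in wild-type cells. Its means there were 49.1, 108 and 15.8 TPM at days 0, 1 and 3. The rise at day 1 was called, but fell short of 2-fold with an equal median (0.92). It also did so without wild-type replicate 1 of day 0 (0.86) or of day 1 (0.98). The fall of *Foxh1* at day 3 was called in both genotypes (limma, -1.57, SE 0.18, adjusted p = 3.71e-06 in wild-type and -1.45, SE 0.16, adjusted p = 2.44e-06 in knockout cells).

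Of the intracellular inhibitors, *Skil*, a co-repressor of SMADs, rose at day 1 from 40.9 to 127 TPM in wild-type and from 25.1 to 77.1 TPM in knockout cells (limma, log2 fold changes 1.61, SE 0.13, and 1.58, SE 0.11, adjusted p = 2.32e-07 and 1.14e-07). *Tgif1* and *Ldlrad4* fell at day 3 in wild-type cells and were not called in knockout cells. Without wild-type replicate 2 at day 0, the log2 fold change of *Ldlrad4* was -0.65, short of 2-fold. In knockout libraries *Tgif1* was lower at day 3 as well, at 98.9 to 102.2 TPM at day 0 and 54.8 to 58.8 TPM at day 3. Neither gene was called for a difference between the genotypes in the response at day 3. Of the target genes, *Foxa2* and *Sox17*, which also mark endoderm, rose at day 3. *Eomes*, *Gsc*, *Mixl1* and *Fgf8*, genes of mesendoderm and the primitive streak, were not called in wild-type cells at either day. *T*, of the same list, was called lower at day 3 in wild-type but not in knockout cells. Wild-type replicates 1 and 2 held 3.16 and 0.293 TPM of *T* at day 0. Without replicate 1 its log2 fold change was -0.25, short of 2-fold. In knockout cells, *Eomes* was called higher at day 1 (2.51 to 6.05 TPM, limma, 1.01, SE 0.17, adjusted p = 0.000375). That call was lost without knockout day 0 replicate 2 or 3 and without knockout day 1 replicate 2 (log2 fold change 0.937, 0.978 and 0.945). With an equal median it fell short of 2-fold too (0.959). The response of *Eomes* at day 1 was not called different between the genotypes (0.58, SE 0.25, limma adjusted p = 0.244).

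**Figure D5:**
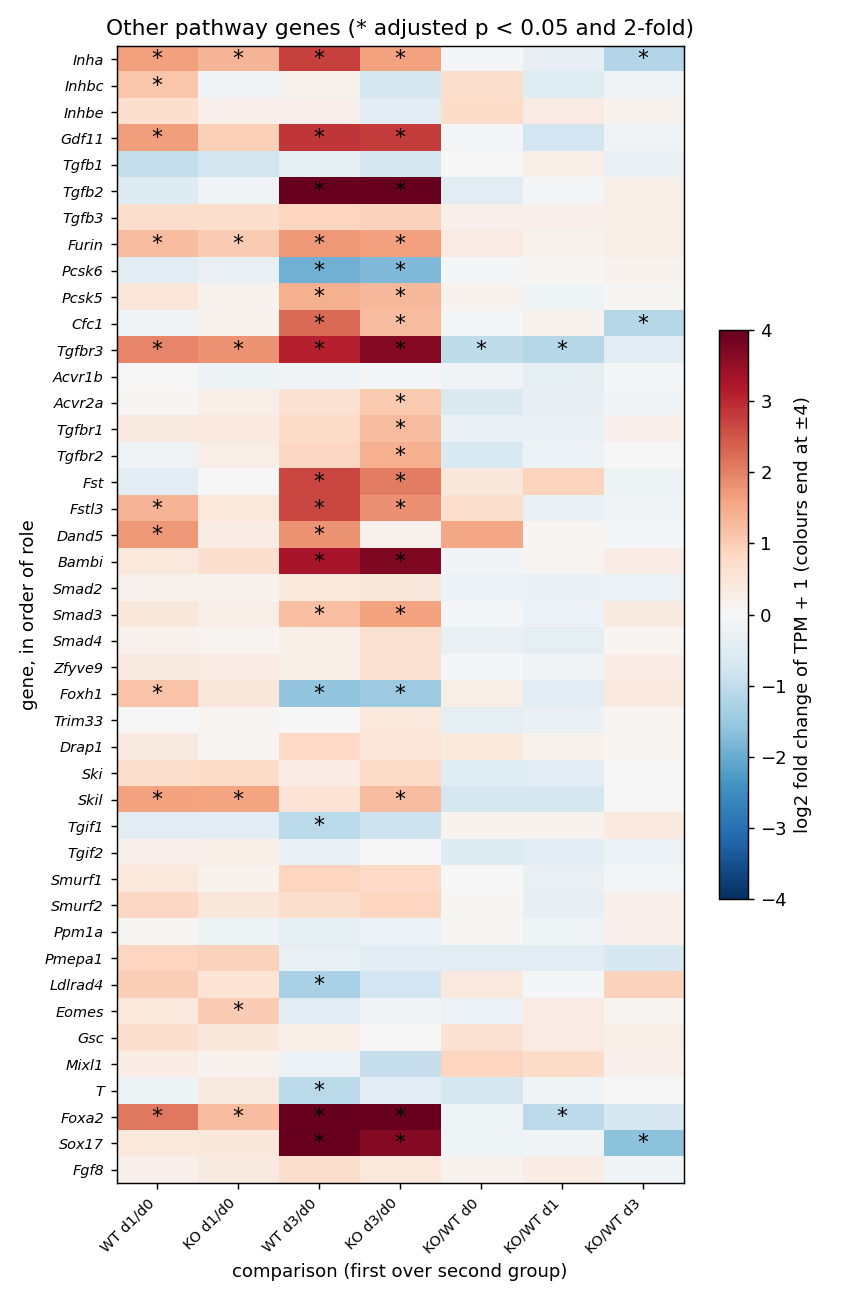
Log2 fold change of TPM + 1 (colour, red higher and blue lower in the first group, ending at 4 in either direction) of the other pathway genes reported here (rows, in order of role) in 7 comparisons (columns), with an asterisk where limma called the gene. Red prevails in the 4 columns of RA treatment, and the genotype columns hold 1, 2 and 3 asterisks at days 0, 1 and 3.

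Between the genotypes, 1, 2 and 3 of the 44 other genes were called at days 0, 1 and 3 (3.05%, 2.22% and 1.29% of all genes), each lower in the knockout. Over all genes, 384 of 485 calls at day 1 were lower in the knockout, and 197 of 366 with an equal median. The genes called were *Tgfbr3* at day 0, *Tgfbr3* and *Foxa2* at day 1, and *Inha*, *Cfc1* and *Sox17* at day 3. *Tgfbr3*, the gene of betaglycan, had means of 1.33 TPM in knockout and 3.69 TPM in wild-type cells at day 0 (limma, log2 fold change -1.01, SE 0.18, adjusted p = 0.00256) and of 7.24 and 17.2 TPM at day 1 (limma, -1.15, SE 0.16, adjusted p = 0.00022). Its call at day 0 was lost without wild-type replicate 1 or without knockout replicate 2 or 3, and that at day 1 without knockout replicate 3, where the fold change fell just short of 2 (log2 fold change -0.936, -0.965, -0.979 and -0.984, respectively). An equal median left *Tgfbr3* at -0.954 and -0.926 at days 0 and 1 and *Foxa2* at -0.883 at day 1, and quantile normalization left them at -0.955 and -0.891 at day 1, short of a 2-fold change. *Inha* held 31.3 to 36.4 TPM in knockout and 72.5 to 86.7 TPM in wild-type libraries at day 3 (limma, -1.18, SE 0.12, adjusted p = 2.16e-05), and *Sox17* held 10.4 to 13.5 and 38.6 to 40.3 TPM (limma, -1.63, SE 0.15, adjusted p = 1.42e-05). *Cfc1* held means of 1.72 and 4.85 TPM, a difference that lost its call without knockout replicate 2 (limma, log2 fold change -0.95) and did not pass the test with a pseudocount of 0.1 (limma adjusted p = 0.332) or by voom on recovered reads (limma adjusted p = 0.0778). The summed primitive endoderm markers given above for days 1 and 3, of which *Sox17* is 1, moved with these genes. At day 0 they summed to 9.62 to 11.5 TPM in knockout and 12.1 to 26.3 TPM in wild-type libraries, and the RA response genes to 15.3 to 17.5 TPM and 32.5 to 36.8 TPM, with 2 of 6 called lower. Their part was not tested. The medians over the 44 genes were -0.05, -0.20 and 0.02 at days 0, 1 and 3, against 0.00, -0.13 and 0.00 over all genes.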

How the data were processed

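Bulk RNA-seq of R1/E mESCs was available as 17 libraries in 6 groups of genotype and day. Libraries were made with the NEBNext Ultra kit, which does not mark strand, and run on an Illumina NovaSeq. What the authors deposited is a TPM for every gene and library, worked out from gene length and reads. HISAT2 2.1.0, StringTie 1.3.6 and GRCm38.p6 are named in the submitters' processing notes. The count model of the study could not be used on TPM, so log2(TPM + 1) was tested, which understates fold changes of low genes.

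The 21871 genes that reached a TPM of 1 in 2 or more of the 17 libraries were fitted with limma 3.58.1 (R 4.3.3) as means of the 6 groups, with a variance trend and Benjamini-Hochberg adjustment over all genes, separately for each contrast. Calls required an adjusted p below 0.05 together with a 2-fold change. The comparisons were genotype at each day, day 1 and day 3 against day 0 in each genotype, and the difference between genotypes in these responses. The fit was tested on simulated data.

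Reads were recovered as TPM times GENCODE M21 exon length divided by a step of the library, and 95.9% to 96.7% of values were whole within 0.01. They gave depth, and limma's voom on these reads was an alternative. M21 holds 54495 of the 54532 listed genes. None of the 9 genes shares exon bases with another annotated gene. Replicates differed by more than sampling noise, and labels do not say what sets them apart beyond the study's term biological replicate.

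The 9 genes, the lists of 49 other pathway genes and of markers, and the rule for named genes (these lists, *Usb1*, and the 5 genes of highest r with *Nodal* and with *Inhbb*) were chosen with earlier results of these data known. Of the genes so selected, 2 are not reported here by name, and counts over the lists include them where they are members. Alternatives were a pseudocount of 0.1, no filter, TPM of at least 5, adjusted p alone, quantile normalization, an equal median, the libraries of each comparison alone, a replicate block and leaving out each library.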

Additional observations from a re-analysis of the deposited data

Results flagged for a closer look

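In the 9 genes, differences between the genotypes in the response to RA were called for *Inhbb* at day 1 (1.48 on the log2 scale, knockout minus wild-type response), *Tdgf1* at day 3 (1.28) and *Nodal* at day 3 (1.06). They are given as a description, since the genes were chosen on these data. Among the 44 other pathway genes, the responses at day 3 differed for *Inha* by -1.15 (limma adjusted p = 0.00178) and for *Sox17* by -1.47 (limma adjusted p = 0.0021), in both cases a smaller rise in the knockout. *Sox17* was at or near 0 at day 0 (0 to 7 reads in a library), so its difference depends on the pseudocount, and it was -0.96 with a pseudocount of 0.1 (limma adjusted p = 0.436). For *Tgfbr2* at day 1, each wild-type library was below the wild-type mean of day 0 and each knockout library above the knockout mean of day 0. The libraries of the 2 days overlapped in both genotypes, however. They held 3.61 and 4.17 TPM at day 0 and 3.11 to 3.70 TPM at day 1 in wild-type cells. In knockout cells they held 1.89 to 2.43 TPM and 2.30 to 3.34 TPM. The difference between the responses of 0.40 did not pass the test (limma adjusted p = 0.42).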

How the results depend on the processing

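The direction of every called fold change of the 8 tested genes was kept under the alternatives run, and no called fold change of the other pathway genes reversed. Of the recomputed fold changes of the 8 genes, 50 moved by more than the spread between replicates and 1822 did not. Many of the 1822 could not move. Changes of filter or threshold leave group means as they are, and an omitted library alters only contrasts that use its group. With an equal median, 34 moved and 38 did not. Of the recomputed fold changes of the other pathway genes, 57 lost their call and 1655 did not, where an adjusted p alone could lose none.

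With an adjusted p alone, 2 (day 0) and 5 (day 3) of the 8 genes passed between genotypes, where 2598 and 1645 of all 21871 genes did. At day 1 against day 0, 7 passed in wild-type and 7 in knockout cells, where 8311 and 6066 of all genes did. The 8 genes were chosen on these data, and nothing is read from their counts. With the libraries of each comparison alone, 0 (day 0), 1 (day 3) and 1 (response at day 3) were called. An equal median left 1 for the response at day 3, where *Nodal* fell short of 2-fold (0.95). Leaving out 1 library gave 1 to 3 calls for the genotype at day 3 (1 without knockout day 3 replicate 2), 1 to 2 for the response at day 1 (2 without wild-type day 0 replicate 2) and 0 to 2 for that at day 3 (0 without wild-type day 0 replicate 1, 1 without wild-type day 3 replicate 3 or knockout day 3 replicate 2).

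Of the other pathway genes, an adjusted p alone gave 10, 12 and 7 between genotypes at days 0, 1 and 3, 23 and 33 for days 1 and 3 in wild-type and 19 and 35 in knockout cells, and 1 and 5 for the responses. At day 0 between genotypes, 4 were called with a pseudocount of 0.1, 2 with TPM of at least 5, 2 after quantile normalization, 6 by voom and 0 with those libraries alone. Voom gave 17 at day 1 in wild-type cells and 1 for the response at day 1, an equal median gave 1 between genotypes at day 1, and a pseudocount of 0.1 gave 1 for the response at day 3. Leaving out 1 library gave 0 to 5 at day 0 (0 without wild-type replicate 1 or knockout replicate 2 or 3, 5 without wild-type replicate 2, 2 without knockout day 3 replicate 1 or 2), 1 to 2 at day 1 (1 without knockout replicate 3), 0 to 4 and 2 to 6 for the responses (4 and 6 without wild-type day 0 replicate 2), and 7 to 16 at day 1 in wild-type cells (7 without wild-type day 0 replicate 1).

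Over all genes, an adjusted p alone raised the calls between genotypes from 668, 485 and 283 to 2598, 3789 and 1645 at days 0, 1 and 3, those of wild-type cells from 3033 and 5640 to 8311 and 11396, those of knockout cells from 1519 and 4782 to 6066 and 11258, and those of the responses from 188 and 529 to 488 and 1345. Voom called 1280 at day 0 between genotypes and 2317 at day 1 in knockout cells. The libraries of the comparison alone gave 73 at day 0 and 258 for the response at day 3. At day 0, 384 were called without wild-type replicate 1 and 2282 without wild-type replicate 2, whose omission also gave 1822 and 1968 for the responses. Other scalings moved the share of calls that were higher. Between genotypes it went from 20.8% to 46.2% (equal median) and 43.8% (quantile) at day 1, and from 52.4% to 67.0% (equal median) at day 0. In wild-type cells it went from 72.0% to 58.3% and 51.4% at day 1 and from 62.4% to 51.8% and 51.9% at day 3. In knockout cells at day 3 it went from 63.2% to 44.8% (equal median), and for the responses from 21.8% to 33.6% and 50.3% at day 1 and from 48.4% to 36.8% (equal median) at day 3.

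The replicate numbers gave no pairing, since same-numbered libraries correlated at -0.130 to 0.124, 1 of 40 pairs was over 0.1 and 6 of 17 libraries correlated best with their own number. With the replicate block, 1, 2 and 2 of the 8 genes and 1, 2 and 3 of the other pathway genes were called between genotypes at days 0, 1 and 3, although *Tgfbr3* at day 0 fell just short of 2-fold (-0.99). The causes of these changes were not tested. Wild-type cells at day 0 had 2 libraries, so leaving out 1 left a lone library that the fit takes to vary like the other groups. Depth limits *Inhba*, which only the fit without a filter holds, and no fold change of it is given.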
